A study of Mus musculus with 7 samples.

Results

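The aminoacyl-tRNA synthetase genes of the mouse soleus were compared between 4 arrays of Yin Yang 1 (YY1) knockout muscle and 3 arrays of wild type muscle. The members are the genes whose platform symbol is that of a cytosolic or a mitochondrial synthetase, and the rule itself uses no measured value. There were 26 of them among 12393 genes, read by 48 probe sets. They comprise 18 cytosolic enzymes or subunits and 8 mitochondrial enzymes, the latter being the forms whose symbol ends in 2. Cytosolic enzymes for aspartate and methionine were not analysed here. Both groups were mice of 6 months on a C57Bl/6 and 129 mixed background, and they differ in the labels only by genotype. The cells that lost Yy1, the promoter behind the deletion and the part of the gene that was removed were not given in the sources used here. Nor do the labels say whether each array is a separate animal, so p-values speak only of the spread among these 7 arrays, which may be technical.

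A synthetase joins an amino acid to the transfer RNA that carries its codon's partner, and each compartment that makes protein needs its transfer RNAs charged. Cytosolic enzymes serve the ribosomes that make most proteins of the cell, and some of them sit together in a multisynthetase complex. The mitochondrial enzymes are encoded in the nucleus, imported, and serve the ribosomes that make the few respiratory chain subunits encoded by mitochondrial DNA. In many cells a group of cytosolic synthetase genes is raised by the transcription factor ATF4 when amino acids are short or the integrated stress response is active. YY1 is a zinc finger transcription factor with known target genes of mitochondrial function in muscle.

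Intensities were compared on the log2(value + 1) scale, which is the scale of every level and fold change below, and a gene was called when its adjusted p was under 0.05. Array medians were 139.1 to 143.2 intensity units. Yy1 was 9.32, 9.20 and 9.62 in wild type and 8.39, 8.24, 8.48 and 8.29 in knockout, a change of -1.02 (SE 0.10, adjusted p = 0.000213; two-sided exact permutation p = 0.0286, the smallest that 3 arrays against 4 can give). Transcripts of muscle fibres, among them those of slow fibres, were abundant in both groups: summed over 10 such genes (4 called higher, 3 lower), intensity was 372444 to 390512 in wild type and 381946 to 391699 in knockout. Of all genes, 17.0% were called higher and 16.0% lower. Markers of other cells differed between the groups. Macrophage markers were higher in 10 of 10 cases (summed intensity 3884 to 4606 in wild type and 9318 to 15024 in knockout), and fibroblast markers in 5 of 7 (18698 to 22052, against 23890 to 35984). Endothelial markers were lower in 8 of 8 (4385 to 4756, against 2187 to 2414), and of 5 lymphocyte markers none was called in either direction (limma, unadjusted p = 0.352 to 0.875; 283 to 305, against 277 to 334). The lymphocyte markers were dim, from 4.33 (Ms4a1) to 7.07 (Cd3e) on single arrays, so the lack of calls says little about these cells. No marker was listed at 0 on any array, but the lowest intensity of any probe set was 11.34, so this does not show detection. The part of these cells in the differences below was not tested, and in whole muscle fewer cells of a type and less RNA per cell cannot be told apart.

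Most of the called cytosolic genes rose and most of the called mitochondrial genes fell; the difference between the sets was not tested. Of 18 cytosolic genes, 8 rose in the knockout, Kars fell and 9 did not pass; their median log2 fold change was 0.13. Of 8 mitochondrial genes, 3 fell, Tars2 rose and 4 did not pass; their median was -0.15. Over all 12393 genes, 32.9% were called, 17.0% higher and 16.0% lower, and the median change was 0.0126. Against that background 44.4% of the cytosolic genes were called higher and 5.56% lower, while 12.5% of the mitochondrial genes were called higher and 37.5% lower. In all, 13 of the 26 were called, and for 17 of the 26 the groups did not overlap, as was so for 39.5% of all genes. The changes were small: the extremes were 0.60 for Nars and -0.56 for Fars2, and the median size was 0.20 against 0.147 for all genes. Most members were brighter than the median gene, at level percentiles from 47 (Sars2) to 96 (Eprs). With only genes above the median level fitted, 1622 were called higher and 1606 lower, so calls were more common among bright genes. The shares called over all genes are therefore lower than those of genes at the members' level, which were not computed. A share of members above that of all genes, here or below, is thus not read as a trait of the synthetases.

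**Figure D1:**
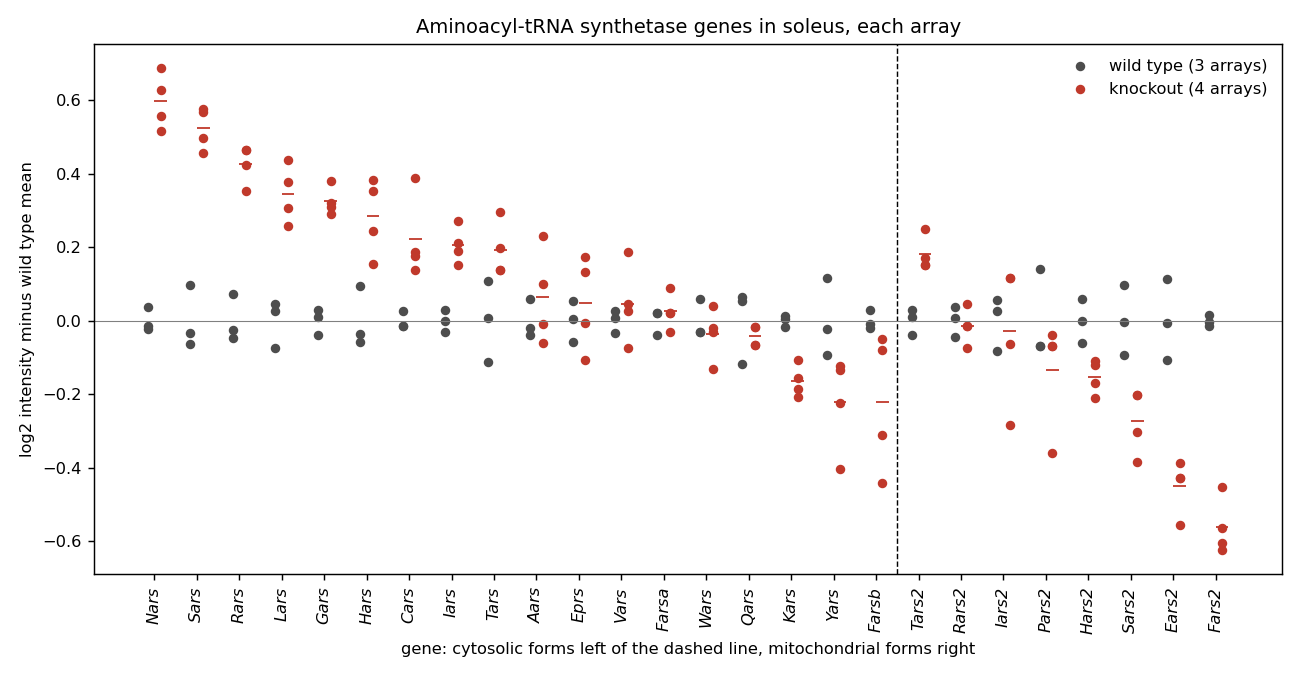
Log2 intensity of each synthetase gene on each array, minus the mean of its wild type arrays; dots are arrays (3 wild type, 4 knockout) and the short line is the knockout mean. All 4 knockout arrays lie above the wild type arrays for Nars, Sars and Rars and below them for Fars2 and Ears2, while the groups overlap for genes such as Eprs and Rars2.

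Nars, of the asparaginyl enzyme, rose most. It measured 11.26, 11.32 and 11.27 in wild type and 11.84, 11.97, 11.91 and 11.80 in knockout. The lowest knockout array was thus well above the highest wild type array, and the change was 0.60 (SE 0.059, adjusted p = 0.000193), or 1.51-fold. A second Nars probe set rose by 0.47. Next was Sars, of the seryl enzyme, which also charges the transfer RNA used for selenocysteine. Its values were 10.22, 10.19 and 10.35 in wild type and 10.83, 10.82, 10.71 and 10.75 in knockout, a rise of 0.53 (SE 0.062, adjusted p = 0.000411) with no overlap; its second probe set rose by 0.37.

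Glycyl-tRNA synthetase is made in a cytosolic and a mitochondrial form from the single gene Gars. Gars read 10.32, 10.25 and 10.30 in wild type and 10.61, 10.60, 10.58 and 10.67 in knockout, a rise of 0.32 (SE 0.052, adjusted p = 0.00179). The 4 knockout values lay close together and above every wild type value. Kars, of the lysyl enzyme, likewise gives a protein to each compartment, and it was the only cytosolic gene called lower. Its values were 10.77, 10.75 and 10.78 in wild type and 10.56, 10.66, 10.58 and 10.61 in knockout, a change of -0.17 (SE 0.050, adjusted p = 0.0357) without overlap. The direction held under every alternative run, but the call did not: its adjusted p rose to 0.0853, 0.0706 and 0.0891 when wild type arrays 1, 2 and 3 were left out in turn, to 0.0694, 0.0648 and 0.0655 for knockout arrays 1, 3 and 4, and to 0.0523 with quantile normalization.

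The multisynthetase complex was represented by 6 enzymes, of which Rars, Lars and Iars rose, Kars fell, and Qars and Eprs did not pass. Beside these counts, 17.0% of all genes were called higher and 16.0% lower, so 1 lower call among 6 is near the share of all genes. Rars, of the arginyl enzyme, read 10, 9.90 and 9.88 in wild type and 10.28, 10.39, 10.39 and 10.35 in knockout, a rise of 0.43 (SE 0.057, adjusted p = 0.000686). Lars, whose leucyl enzyme is also known as a leucine sensor for mTORC1, read 10.34, 10.44 and 10.46 against 10.67, 10.79, 10.72 and 10.85, a rise of 0.35 (SE 0.063, adjusted p = 0.00337). Neither gene's groups overlapped. Iars, of the isoleucyl enzyme, rose less, by 0.21 (SE 0.052, adjusted p = 0.0168), from 11.03, 11.09 and 11.06 to 11.33, 11.27, 11.21 and 11.25. Leaving out wild type array 1 raised its adjusted p to 0.0561. A second Iars probe set measured 0.15 with overlapping groups and did not pass. Eprs, of the joint glutamyl and prolyl enzyme, measured 0.050 (SE 0.077, adjusted p = 0.661) and its other probe sets 0.028 and 0.062.

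The complex is held together by the scaffold proteins of Aimp1, Aimp2 and Eef1e1, which did not move as one. Aimp1 read 11.29, 11.20 and 11.21 in wild type and 11.51, 11.57, 11.39 and 11.56 in knockout and rose by 0.27 (SE 0.063, adjusted p = 0.011). Aimp2 measured 0.17 (SE 0.065, adjusted p = 0.0824). Eef1e1 was called lower, at -0.31 (SE 0.092, adjusted p = 0.0303), with values of 9.95, 9.98 and 9.67 against 9.71, 9.52, 9.53 and 9.45 that overlapped. Wild type array 3 was low for this gene, and the call was lost on leaving out wild type array 1 (0.107) or 2 (0.114), or knockout array 2 (0.072), 3 (0.0666) or 4 (0.075).

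Among enzymes outside the complex, 5 of 12 rose, or 41.7% beside 17.0% of all genes. None was called lower, although 3 had negative changes (limma, where Yars had the smallest unadjusted p of these, 0.0275). Beside Nars, Sars and Gars, those that rose were Hars and Cars, both with weaker support. Hars, of the histidyl enzyme, read 9.66, 9.51 and 9.53 in wild type and 9.95, 9.81, 9.72 and 9.92 in knockout, a rise of 0.28 (SE 0.073, adjusted p = 0.0184), a call lost on leaving out wild type array 2 (0.0718) or 3 (0.0661). Its second probe set measured 0.16. Cars, of the cysteinyl enzyme, read 9.18, 9.18 and 9.22 against 9.38, 9.58, 9.37 and 9.33, a rise of 0.22 (SE 0.069, adjusted p = 0.0392). Knockout array 2 was the highest of these. For Cars the adjusted p was 0.105, 0.104 and 0.0777 on leaving out wild type arrays 1, 2 and 3, and 0.0537, 0.0546 and 0.0552 for knockout arrays 1, 2 and 3. A dimmer Cars probe set measured -0.097, and the mean of both gave 0.061 (adjusted p = 0.447).

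The remaining cytosolic genes did not pass. Tars, of the threonyl enzyme, measured 0.19 (SE 0.071, adjusted p = 0.0692) with no overlap, and it passed when wild type array 1 was left out (0.0451). Yars, of the tyrosyl enzyme, measured -0.22 (SE 0.084, adjusted p = 0.0746) and Farsb, the beta subunit of the phenylalanyl enzyme, -0.22 (SE 0.098, adjusted p = 0.121), also without overlap. The 4 Farsb probe sets were all negative, from -0.22 to -0.061, and 1 that was not the brightest (-0.19) was called lower, whereas its partner subunit Farsa measured 0.024 (SE 0.053). Aars, Vars, Qars and Wars, of the alanyl, valyl, glutaminyl and tryptophanyl enzymes, lay between -0.044 and 0.064 by their brightest probe sets. A second Aars probe set measured 0.19 without overlap, and it did not pass. Probe sets of Qars and Wars disagreed in sign. The brightest for Qars read 11.29, 11.30 and 11.12 in wild type and 11.17, 11.17, 11.22 and 11.22 in knockout, while a dimmer one measured 0.15. Wars, a gene known to be induced by interferon gamma, read 9.38, 9.29 and 9.29 against 9.29, 9.30, 9.36 and 9.19, and its other probe sets measured -0.19 (called lower), -0.075 and 0.14. The SEs of these 4 genes were 0.059 to 0.078, and changes of that size were not detectable with 7 arrays.

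**Figure D2:**
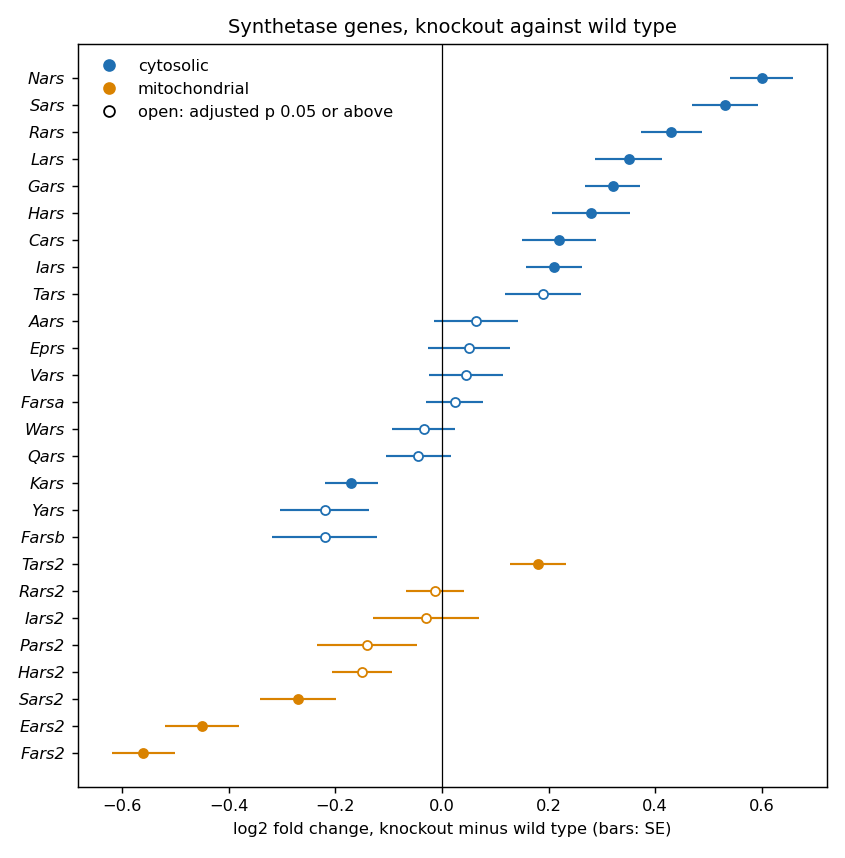
Log2 fold change of each synthetase gene, knockout minus wild type, with its standard error; blue marks cytosolic and orange mitochondrial forms, and open circles did not pass an adjusted p of 0.05. Cytosolic genes run from 0.60 for Nars to -0.22 for Farsb and Yars, and mitochondrial genes from 0.18 for Tars2 to -0.56 for Fars2.

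Promoter windows of RefSeq (build GRCm38.p6, 250 bases before to 50 after the start) were found for 17 of the 26 genes, 11 cytosolic and 6 mitochondrial. They were searched on both strands for short motifs, since YY1, whose transcript was at 49.2% of wild type in the knockout, binds DNA. The C/EBP-ATF response element, through which ATF4 acts, was searched as TGATGNAA. It stood in 5 of the 17 windows and in 3.97% of all 32851 windows; all 5 belong to cytosolic genes. Gars and Iars of these rose, and Aars, Tars and Yars did not pass. Of all 18 cytosolic members 44.4% were called higher, and a link between the motif and the changes was not tested. A match of each gene is shown, with the motif in capitals on the strand of the gene, where 4 of the 5 appear in reverse complement. Gars holds its match from base -30 relative to the start, Tars from -15, Aars from 10, Iars from 8 and Yars from 4.

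Gars (chr6:55037960-55037989, plus strand): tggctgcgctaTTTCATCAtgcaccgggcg
Iars (chr13:49682126-49682155, plus strand): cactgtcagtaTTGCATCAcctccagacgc
Tars (chr15:11399655-11399684, minus strand): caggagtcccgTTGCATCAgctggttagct
Aars (chr8:111033840-111033869, plus strand): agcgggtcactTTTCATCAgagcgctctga
Yars (chr4:129189895-129189924, plus strand): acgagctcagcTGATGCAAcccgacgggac

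The YY1 core motif, searched as AANATGGC, stood in 6.05% of all windows and in 1 of the 17, that of Farsa, which holds it at 2 places upstream of the start. Farsa was among the genes that did not pass, at 0.024. The NRF1 motif, searched as GCGCANGCG, stood in 6.25% of all windows and in those of Kars, Farsb, Tars and Iars2. The oestrogen related receptor motif, searched as TNAAGGTCA, stood in 1.28% of all windows and in none of the 17. These are matches of letters in a short window and not measured sites.

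Farsa, from -94 (chr8:84856881-84856910, plus strand): ttgccacacttAAGATGGCgacgaccagct
Farsa, from -49 (chr8:84856926-84856955, plus strand): gcgccacactaAAAATGGCaacgcacgcgc

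Fars2, of the mitochondrial phenylalanyl enzyme, fell most among the mitochondrial forms. It read 10.16, 10.13 and 10.14 in wild type and 9.69, 9.54, 9.58 and 9.52 in knockout, a change of -0.56 (SE 0.059, adjusted p = 0.000236), to 67.8% of wild type. The 3 wild type arrays were nearly equal and all 4 knockout arrays lay below them. A second, dimmer Fars2 probe set changed by -0.96, to 51.3%. Sars2, of the mitochondrial seryl enzyme, read 7.64, 7.45 and 7.54 against 7.16, 7.34, 7.34 and 7.24, a change of -0.27 (SE 0.071, adjusted p = 0.0183) without overlap. Leaving out wild type array 1 or 3 ended that call (adjusted p = 0.0697 and 0.0532).

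Ears2, of the mitochondrial glutamyl enzyme, was lower by its brightest probe set. The values were 7.66, 7.76 and 7.88 in wild type and 7.38, 7.34, 7.34 and 7.21 in knockout, a change of -0.45 (SE 0.070, adjusted p = 0.0015) to 73.1% of wild type. Its other 2 probe sets were dimmer, between 5.04 and 5.73 on every array, and each measured 0.12 with overlapping groups; the mean of all 3 gave -0.07 (adjusted p = 0.314). In mitochondria the glutamyl enzyme also loads the glutamine transfer RNA with glutamate, and an amidotransferase of 3 subunits then turns it into glutamine. The genes of those subunits were called lower as well. Gatb read 8.39, 8.53 and 8.48 in wild type and 7.97, 7.80, 7.73 and 7.50 in knockout, a change of -0.72 (SE 0.11, adjusted p = 0.00118). Qrsl1 and Gatc, named here after their values were seen, changed by -0.22 (SE 0.060, adjusted p = 0.0232) and -0.21 (SE 0.062, adjusted p = 0.0329). The Gatb call held under all 16 alternatives. For Qrsl1 the adjusted p was 0.0704 and 0.0851 on leaving out wild type arrays 1 and 2, and 0.0569 and 0.0567 for knockout arrays 2 and 4. For Gatc it was 0.0856, 0.0989 and 0.0614 for wild type arrays 1, 2 and 3, 0.0734 and 0.0704 for knockout arrays 2 and 3, and 0.0558 with arrays centred on their median.

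Tars2, of the mitochondrial threonyl enzyme, was the exception in direction. It read 9.21, 9.14 and 9.19 in wild type and 9.35, 9.43, 9.33 and 9.33 in knockout, a rise of 0.18 (SE 0.053, adjusted p = 0.0315) without overlap. On leaving out wild type arrays 1, 2 and 3 its adjusted p was 0.0541, 0.1 and 0.0684, and for knockout array 2 it was 0.0687. A second Tars2 probe set measured 0.049, so that the mean of both gave 0.11 (adjusted p = 0.148). Hars2, of the mitochondrial histidyl enzyme, measured -0.15 (SE 0.056, adjusted p = 0.0716) with no overlap and -0.27 in its second probe set. Pars2, Iars2 and Rars2, of the prolyl, isoleucyl and arginyl enzymes, measured -0.14 (SE 0.094), -0.03 (SE 0.10) and -0.013 (SE 0.054) with overlapping groups.

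**Figure D3:**
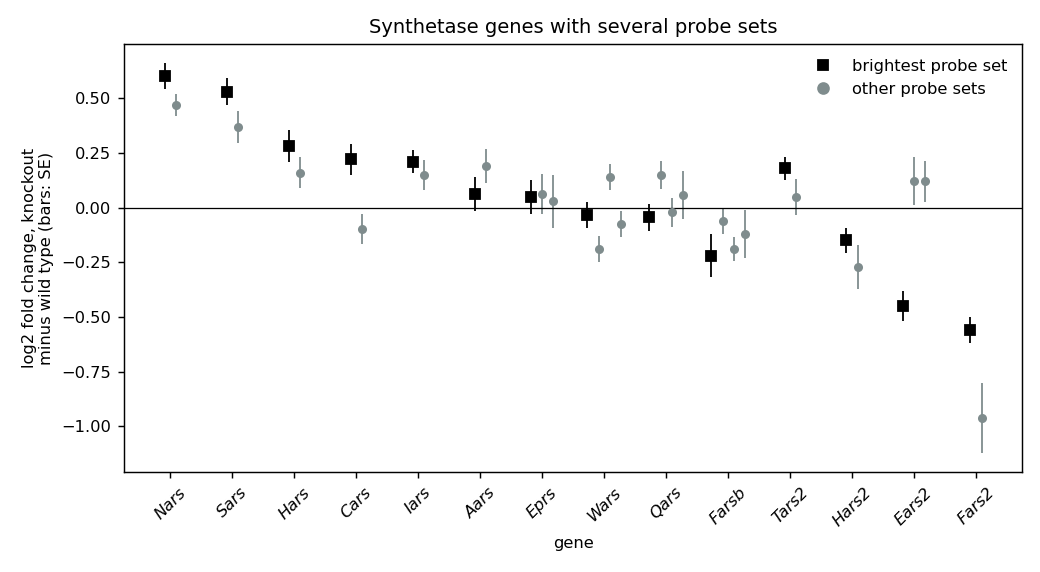
Log2 fold change, knockout minus wild type, of every probe set of the 14 synthetase genes that have several, with standard errors; black squares are the brightest probe sets used for the gene and grey circles the others. All probe sets of Nars and Sars lie above 0 and both of Fars2 below, whereas those of Ears2 and Cars lie on both sides.

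The forms for the same amino acid were then compared within each array, by subtracting the log2 value of the mitochondrial form from that of the cytosolic one. Only the change of this difference is read, since levels of different probe sets are not comparable. There were 9 such pairs, 4 of which reuse Eprs or Fars2 and so are not independent, and no share over other gene pairs was computed; the changes, from 0.013 to 0.80, are given as a description. For serine the difference was 2.58 to 2.81 in wild type and 3.37 to 3.68 in knockout, a change of 0.80 (SE 0.094), the sum of a rise in Sars and a fall in Sars2. For phenylalanine it changed by 0.59 (SE 0.051) with subunit Farsa and 0.34 (SE 0.11) with Farsb, both through Fars2. For arginine it changed by 0.44 (SE 0.045), through Rars, while Rars2 stayed within 9.65 to 9.77 on all 7 arrays. For histidine it went from between 0.96 and 1.18 to between 1.42 and 1.61, a change of 0.43 (SE 0.076); Hars and Hars2 are neighbouring genes in the RefSeq table. For glutamate the change was 0.50 (SE 0.12) by the brightest probe sets and 0.12 by the mean of all of them. Isoleucine (0.24, SE 0.10), proline (0.18, SE 0.16) and threonine (0.013, SE 0.059) had overlapping groups, and for threonine both Tars and Tars2 measured above 0. The proline value was 0.068 without knockout array 1, and the threonine value turned to -0.023 without wild type array 2 and -0.025 without knockout array 1.

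**Figure D4:**
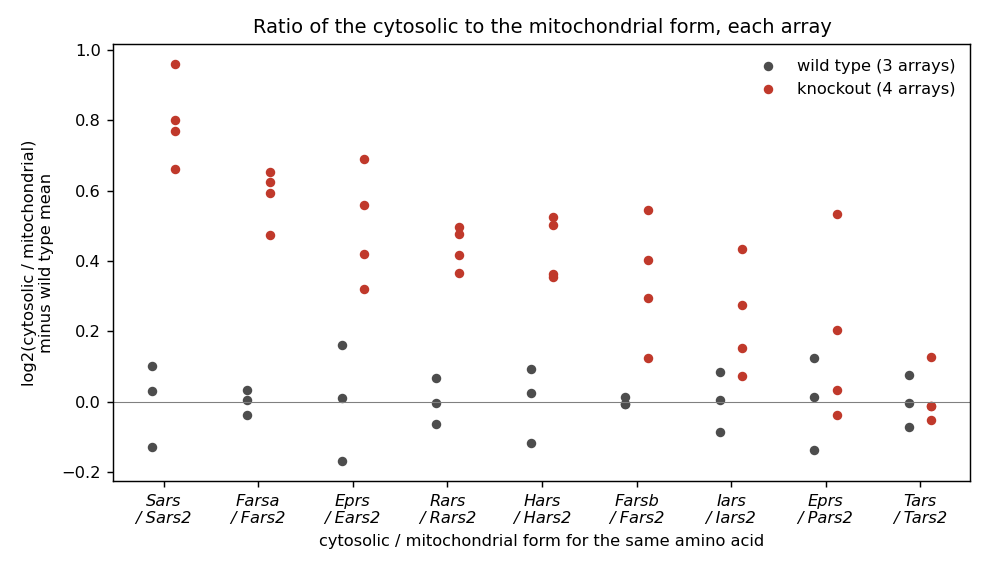
Difference of log2 values between the cytosolic and the mitochondrial form for the same amino acid, minus its wild type mean, for each array (3 wild type in grey, 4 knockout in red). The knockout arrays lie above the wild type arrays for serine, phenylalanine, glutamate, arginine and histidine, while the groups overlap for proline and threonine and meet for isoleucine.

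Other genes of charging and translation were read from lists written for the same comparison. The mitochondrial translation factors were lower in 5 of 5 measured cases, with a median of -0.57. Over all genes 16.0% were called lower and 17.0% higher. Gfm2, of a factor that recycles mitochondrial ribosomes, read 9.76, 9.83 and 9.80 in wild type and 9.29, 9.03, 9.10 and 9.09 in knockout, a change of -0.67 (SE 0.070, adjusted p = 0.000235). The recycling factor gene Mrrf changed by -0.61 (SE 0.089, adjusted p = 0.00117) and Gfm1, of the mitochondrial elongation factor G, by -0.57 (SE 0.087, adjusted p = 0.00134). Tufm, of the mitochondrial elongation factor Tu, changed by -0.38 (SE 0.070, adjusted p = 0.00324), and the mean of its probe sets gave -0.16 (adjusted p = 0.0597). Mtif2, of an initiation factor, had the highest adjusted p of the 5 (-0.40, SE 0.12, adjusted p = 0.03). Both were named after their values were seen. For Mtif2 the adjusted p was 0.0992, 0.0969 and 0.0523 on leaving out wild type arrays 1, 2 and 3, and 0.0775, 0.0744 and 0.0745 for knockout arrays 2, 3 and 4. Of 13 genes of mitochondrial tRNA processing and modification, 6 fell and 1 rose (46.2% and 7.69%), with a median of -0.21. Those that fell include Gatb, Qrsl1 and Gatc, the amidotransferase genes already given above. Hsd17b10, whose product is a subunit of the RNase P of mitochondria as well as a dehydrogenase of isoleucine breakdown, fell most, from 11.44, 11.38 and 11.43 to 10.22, 9.90, 9.84 and 10.10 (-1.40, SE 0.094, adjusted p = 5.02e-05). Beside Gatb, Trmt5, of a tRNA methyltransferase, changed by -0.45 (SE 0.090, adjusted p = 0.00555). The gene that rose was Pus1, of a pseudouridine synthase (0.24, SE 0.073, adjusted p = 0.034). On leaving out wild type arrays 1 and 3 the Pus1 adjusted p was 0.0897 and 0.119, and for knockout arrays 1, 2 and 3 it was 0.0607, 0.0797 and 0.0654. On the cytosolic side, 1 of 5 elongation factor genes rose, or 20.0%, near the 17.0% of all genes. It was Eef1a1, of the factor that carries charged transfer RNA to the ribosome, which rose by 0.80 (SE 0.11, adjusted p = 0.000683). Eef1a2, on the same list and named after its value was seen, measured 0.013 (SE 0.047, adjusted p = 0.861). None of the 5 was called lower (limma; Eef1d had an unadjusted p of 0.0434).

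**Figure D5:**
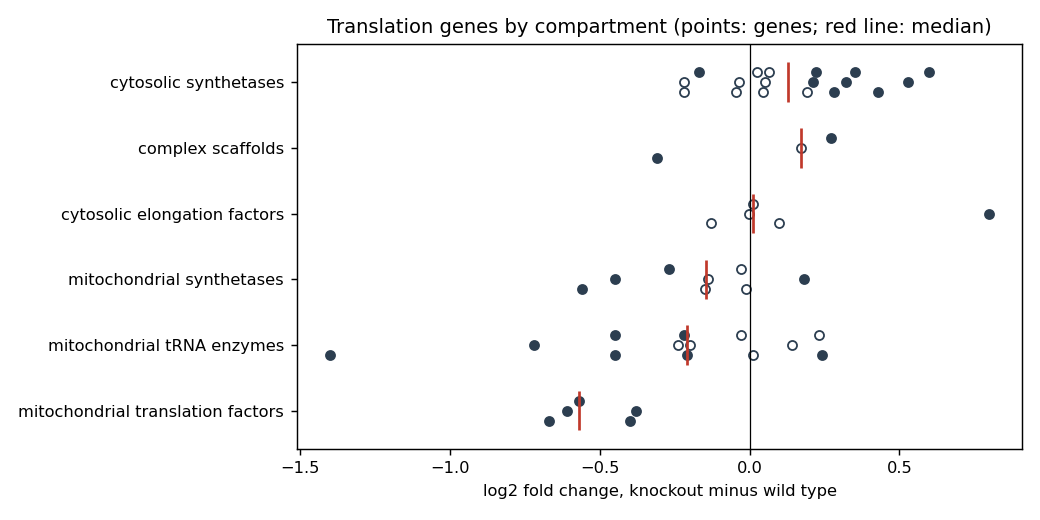
Log2 fold changes, knockout minus wild type, of synthetases and other translation genes by compartment; each point is a gene, filled where the adjusted p was under 0.05, and the red line is the median of its row. The medians of the mitochondrial rows lie between -0.57 and -0.15 and those of the cytosolic rows at or above 0.013.

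Genes of the integrated stress response, the pathway of ATF4, were set beside the synthetases. Of 18 measured, 6 were higher and 1 lower, or 33.3% and 5.56%, beside 17.0% and 16.0% of all genes, and 11 did not pass. Asns, of asparagine synthetase, which makes the substrate of the Nars enzyme, read 7.29, 7.74 and 6.66 in wild type and 8.43, 9.18, 8.99 and 8.41 in knockout and rose by 1.52 (SE 0.27, adjusted p = 0.00315). The amino acid transporter gene Slc7a5 rose by 1.11 (SE 0.13, adjusted p = 0.000379) and Trib3, of a pseudokinase induced by the pathway, by 0.70 (SE 0.12, adjusted p = 0.00247). In the other direction Chac1, of a glutathione degrading enzyme also known as an ATF4 target, read 9.34, 8.99 and 9.47 against 7.96, 7.55, 7.87 and 8.27, a change of -1.36 (SE 0.17, adjusted p = 0.000524). Atf4 itself, named after its value was seen, measured -0.085 (SE 0.061, adjusted p = 0.327). Arrays read its transcript and not its protein, and a part of this pathway in the synthetase changes was not tested.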

How the data were processed

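Total RNA of 7 soleus samples was labelled with biotin and hybridised to one-colour arrays, per the labels' protocols. The authors deposited 1 intensity per probe set and array on a linear scale; RMA is named per the submitters' processing notes, with no version or annotation in the sources used here. Intensities were taken to log2(value + 1). Of 22690 probe sets, 64 controls were left out and 20380 had 1 gene symbol; the brightest of these by mean stood for each of 12393 genes. Symbols came from the platform annotation, updated through RefSeq. The genotypes were compared in R 4.3.3 by two-sided tests of limma 3.58.1 (lmFit, then eBayes) without a filter, and p-values were adjusted by Benjamini-Hochberg over all 12393 genes. In simulated data of 12393 genes, of which 200 were changed, limma recovered 96.3% of changes of 1 log2 unit and 72.7% of 0.5. Of its calls there, 3.4% were false. Smaller changes were not simulated, and a far larger share of genes, 32.9%, was called in the real arrays. Genes named: every member, with array values for up to 8 called members per compartment and for members whose probe sets disagreed in sign; from each context list, up to 3 called genes per direction. Members and lists were chosen with earlier results of these data known. Deviations of arrays with the same replicate number correlated at 0.03, -0.13 and 0.02, so no pairing was used. The alternatives were other normalizations, pseudocounts of 0 and 32, a filter on dim genes, other uses of probe sets, another variance model, a replicate block and leaving out each array. Array number limits the precision; scan batches were not tested. A further motif match is not reported here.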

Additional observations from a re-analysis of the deposited data

Results flagged for a closer look

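Of Yy1 and the 26 synthetase genes, 27 in all, 1 had a knockout array far from the other 3: Pars2 on knockout array 1, at 7.51 against 7.80 to 7.83; the gap was 0.892 of the group's range, past Dixon's limit for 4 samples. Chance flags about 1 in 20 such groups.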

How the results depend on the processing

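Nars, Sars, Rars, Gars, Lars and Fars2 kept their direction and call under all 16 alternatives. The number of cytosolic genes called higher, 8, was 6 to 9 over the alternatives, and that of mitochondrial genes called lower, 3, was 2 to 4. The single cytosolic gene called lower, Kars, became 0 with quantile normalization and 0 to 1 when arrays were left out in turn. The single mitochondrial gene called higher, Tars2, became 0 with the mean of all probe sets and 0 to 1 when arrays were left out. Over all genes, 2103 higher and 1979 lower became 3240 and 3237 when all probe sets were fitted, where probe sets are counted in place of genes. With the replicate number as a block, which the arrays' deviations did not bear out, 1625 genes were higher and 1599 lower, cytosolic counts were 6 higher and 0 lower, mitochondrial counts 0 higher and 2 lower, and 8 of the 13 called members were shared. With the mean of all probe sets the compartment difference was 0.12 for Eprs and Ears2, 0.61 for Farsb and Fars2 and 0.79 for Farsa and Fars2. The threonine difference was -0.025 to 0.052 when arrays were left out. Signs turned for 4 uncalled genes: Qars measured 0.00036 with quantile normalization and 0.036 with the mean of probe sets, Vars -0.0018 with the replicate block and -0.0018 to 0.086 with arrays left out, Iars2 -0.077 to 0.055 with arrays left out, and Rars2 0.012 with quantile normalization, 0.007 with the replicate block and -0.034 to 0.007 with arrays left out. Tars passed among genes above the median level (adjusted p = 0.0469), and Hars2 there (0.0468), with a pseudocount of 32 (0.0414) and with the mean of probe sets (0.0368). The cause was not tested.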

Other observations

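Chosen after the values were seen, the order of the knockout arrays was alike across the 3 Eprs probe sets: 12.31, 12.13, 12.03 and 12.27 on the brightest, 11.64, 11.33, 11.26 and 11.50 on the next and 10.62, 10.17, 10.13 and 10.55 on the third. Knockout arrays 1 and 4 both lay above arrays 2 and 3 for 5 of the 26 synthetase genes (Eprs, Farsb, Gars, Hars and Iars2), as for 16.3% of all genes. The reverse held for 5 (Nars, Pars2, Rars, Sars2 and Wars), and for 21.9% of all genes. By structural class, 4 of 9 class I and 4 of 9 class II cytosolic genes were called higher, with medians of 0.05 and 0.19. That is 44.4% in each class, beside 17.0% of all genes. For 7 of the 26 genes, and 42.2% of all genes, some arrays shared a value in every digit.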
